A study of Mus musculus with 12 samples.

Results

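The 10 genes described here belong to the inhibitory side of the forebrain. They are Gad1, Gad2 and Slc32a1, which serve GABA synthesis and its loading into vesicles, Sst and Pvalb, which mark interneuron classes, the homeobox genes Dlx1, Dlx2, Dlx5 and Dlx6, and Erbb4, a neuregulin receptor. They were taken by symbol from a RefSeq table of 21523 protein-coding genes (GRCm38.p6, the assembly of mm10), and were chosen by the position of c-Fos peaks in these same data as well as by function. Peak positions near them are therefore given as a description, without a test. Of 3294 peaks on the autosomes and the X chromosome, 11 had their midpoint inside one of these genes or within 100 kb of it, each counted once, and 7 of the 11 lay inside or within 10 kb.

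The peaks came from CUT&RUN (a nuclease tethered by an antibody frees the DNA bound by its target) on nuclei of hippocampal CA1 from C57BL/6 mice aged 3 to 4 weeks. All mice carried CaMK2a-Cre/+ and LSL-Sun1-GFP/+, so that a nuclear envelope tag was switched on in cells with a history of CaMK2a-driven Cre, mainly excitatory neurons, and tagged nuclei were sorted at 50000 per reaction. There were 4 groups of 3 replicates each, kainic acid or PBS for 2 to 3 h with an antibody to c-Fos or with rabbit IgG, and the labels do not say how many mice made up a replicate. Only a list of replicated peaks of c-Fos against IgG after kainic acid was used, and peaks after PBS were not analysed here. The list gives positions with no height, score or value per library, so read depth is unknown and no replicate error can be attached to any peak. In a bulk sort, binding in few nuclei and binding in many cannot be told apart, nor can the kind of nucleus that carried a peak. A peak list measures no expression, so the labelled cell type could not be checked against its markers.

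c-Fos is a subunit of AP-1, a transcription factor made after strong neuronal firing, here driven by kainic acid, a glutamate receptor agonist. GABA is the main inhibitory transmitter of the hippocampus. It is made from glutamate by the decarboxylases GAD67 (Gad1) and GAD65 (Gad2) and is packed into synaptic vesicles by VGAT (Slc32a1), while Dlx factors set up the inhibitory lineage in the embryonic ganglionic eminences. Pyramidal neurons of CA1 use glutamate, and these genes are used in the field as markers of the interneurons around them.

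At the Gad genes the peak covered the transcript start listed by RefSeq, and the 250 bases before that start are shown because they lie wholly under the peak. The third sequence is the same stretch of the Sst gene, which no peak covered, with its cAMP response element in capitals. All are written 5′ to 3′ on the strand of the gene, from RefSeq on GRCm38.p6, at chr2:70561879-70562128 (plus strand) for Gad1, chr2:22622077-22622326 (plus strand) for Gad2 and chr16:23890845-23891094 (minus strand) for Sst.
Gad1: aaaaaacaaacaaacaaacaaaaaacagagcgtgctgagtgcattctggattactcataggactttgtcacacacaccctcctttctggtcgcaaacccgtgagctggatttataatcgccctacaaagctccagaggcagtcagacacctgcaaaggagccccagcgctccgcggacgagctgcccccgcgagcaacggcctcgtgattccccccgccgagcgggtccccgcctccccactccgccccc
Gad2: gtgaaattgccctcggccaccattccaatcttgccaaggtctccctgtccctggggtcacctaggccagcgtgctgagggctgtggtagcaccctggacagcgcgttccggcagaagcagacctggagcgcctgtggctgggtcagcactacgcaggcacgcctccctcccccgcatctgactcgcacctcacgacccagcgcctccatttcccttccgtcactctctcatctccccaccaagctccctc
Sst: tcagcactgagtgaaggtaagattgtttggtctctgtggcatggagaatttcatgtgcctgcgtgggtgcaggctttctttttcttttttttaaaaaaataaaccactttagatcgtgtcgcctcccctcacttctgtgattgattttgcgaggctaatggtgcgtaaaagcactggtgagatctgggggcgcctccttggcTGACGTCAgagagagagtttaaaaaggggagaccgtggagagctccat

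Promoter windows of 300 bases, 250 before and 50 after a listed start, were available for 8 of the 10 genes and not for Dlx5 and Dlx6. Pvalb had 2 listed starts, which gave 9 windows. None of the 9 held TGACTCA or its reverse complement TGAGTCA, the letters that AP-1 is best known to bind. Of 21045 windows of protein-coding genes 4.69% held either, and of the 236 windows overlapped by a peak 15.7% did. At shares this low, 9 windows are too few to show a lack. Of the 9, only the windows of Gad1 and Gad2 were overlapped by a peak. TGACGTCA, which reads the same on both strands, occurred once, in the Sst window. It began 48 bases before the start, and 2.26% of all windows and 9.75% of those overlapped by a peak held it. These counts describe letters in short windows. The bases of the peaks outside the windows were not analysed here.

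Genes of GABA synthesis and vesicle loading each had a peak inside or within 1 kb. The Gad1 peak (chr2:70558881-70562545) was 3665 bp wide and reached from 3248 bp before the listed start to 416 bp after it. Its midpoint lay 590 bp outside the gene, and 33.9% of its width was inside. The midpoint also fell within Gad1os, a long non-coding RNA gene that overlaps this end of Gad1. No further peak was found nearer than 232 kb to the gene.

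The Gad2 peak (chr2:22621969-22624754), 2786 bp wide, lay entirely inside the gene. It ran from 358 bp before the listed start to 2427 bp after it. A narrow peak of 618 bp lay 30.5 kb beyond the other end of Gad2 and 31.6 kb from Apbb1ip, so it was about as close to one gene as to the other.

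At Slc32a1 the single peak (chr2:158611967-158614583), 2617 bp wide, was inside the gene but did not cover the listed start. It began 1209 bp after that start and ended 3825 bp after it. The next peaks on either side were 1633 and 4123 kb away, which made it the most isolated of the 11. The 3 genes thus each had a peak with its midpoint 1.03 to 2.52 kb from the listed start, and differed in whether it extended upstream, as at Gad1, or lay within the transcribed part, as at Slc32a1.

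**Figure D1:**
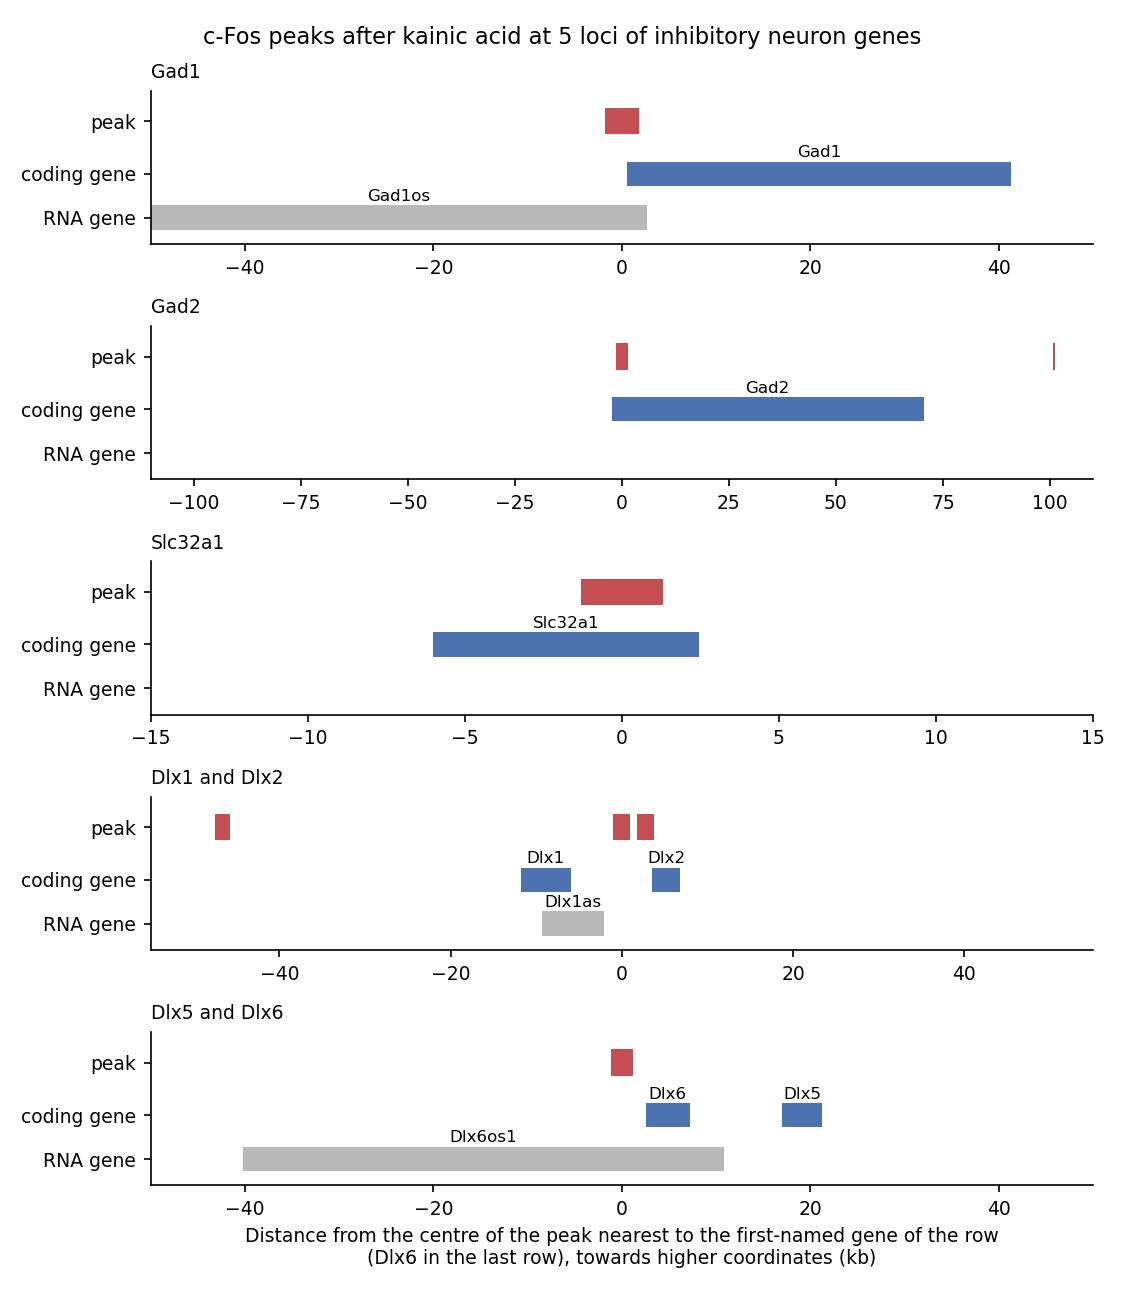
Maps of 5 loci, with distance from the centre of the peak nearest to Gad1, Gad2, Slc32a1, Dlx1 or Dlx6 on the x axis (kb, towards higher coordinates, a different scale in each row). Red bars are c-Fos peaks near the genes described, blue bars are those genes and grey bars the RNA genes Gad1os, Dlx1as and Dlx6os1; other genes are not drawn. The peaks sit over the start side of Gad1 and Gad2, inside Slc32a1, between Dlx1 and Dlx2, and beside Dlx6.

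The Dlx genes lie in 2 neighbouring pairs, and peaks were arranged differently at each. Dlx1 (plus strand) and Dlx2 (minus strand) point towards each other across a gap of 9426 bp. The gap contained the midpoints of 2 peaks, of 2022 bp (chr2:71538909-71540930) and 1947 bp (chr2:71541740-71543686), separated by 809 bp. Together they covered 39.1% of the gap. The second reached 279 bp into the end of Dlx2. Seen from the listed starts, their midpoints were 10.5 and 13.3 kb downstream of Dlx1 and 6.83 and 4.04 kb downstream of Dlx2. Neither promoter window of this pair was overlapped by a peak.

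A further peak of the pair, 1661 bp wide (chr2:71492464-71494124), lay 34.8 kb from Dlx1 on the other side and inside Metap1d, a methionine aminopeptidase gene. It was the only one of the 11 peaks whose nearest protein-coding gene was not among the 10. The antisense RNA gene Dlx1as held no peak midpoint, and the nearest was 2.03 kb away.

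Between Dlx5 and Dlx6, whose gap of 9830 bp is similar in length, no peak was found. A single peak of 2289 bp (chr6:6859627-6861915) lay outside the pair, 2.56 kb from Dlx6 and 17.0 kb from Dlx5. It was inside Dlx6os1, a long non-coding RNA gene of 51085 bp that extends past Dlx6. Peaks just beyond the 100 kb limit were found at this pair alone, 156 and 171 kb from Dlx6. No other gene of the 10 had a peak between 100 and 200 kb.

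The interneuron class markers had no peak at their start. Sst, encoding the inhibitory peptide somatostatin, had its nearest peak (chr16:23884930-23885509) 4.35 kb past the end of the gene and 5.62 kb downstream of the listed start. That peak was 580 bp wide. The other 2, of 903 and 1101 bp, lay 95.3 and 96.8 kb from the gene, just inside the limit, with midpoints 1.56 kb apart. Pvalb, encoding the calcium buffer parvalbumin, had none, and its nearest peak was 1141 kb away, farther than for 84.0% of protein-coding genes.

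**Figure D2:**
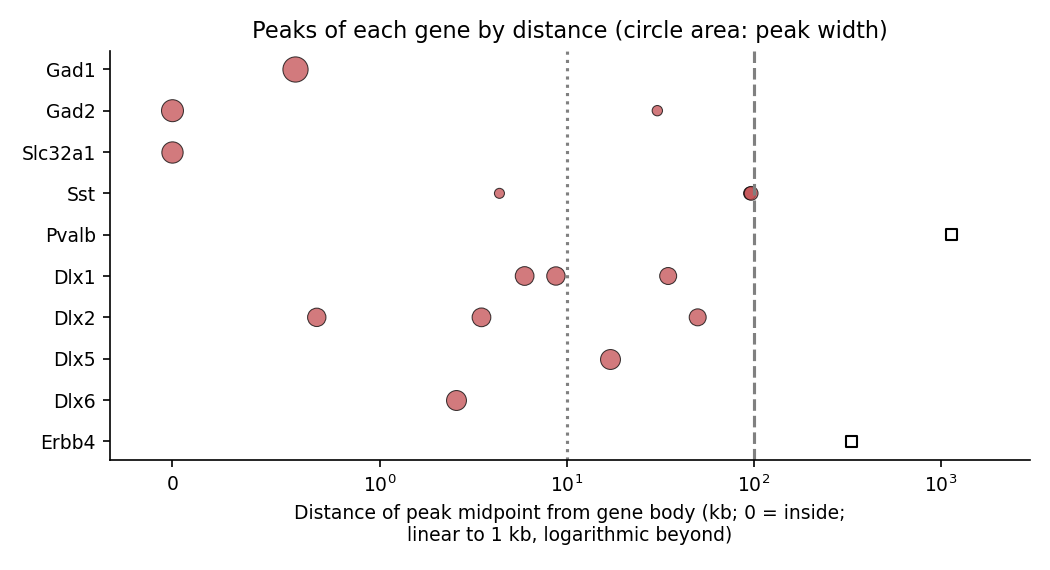
Each row is a gene and each circle a peak within 100 kb, at the distance of its midpoint from the gene (kb, 0 inside, linear to 1 kb and logarithmic beyond), with the circle's area in proportion to peak width; open squares give the nearest peak of genes with none. The dotted and dashed lines mark 10 and 100 kb. Pvalb (1141 kb) and Erbb4 (333 kb) had no peak within 100 kb. The median distance over all protein-coding genes was 360 kb.

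By gene, 8 of the 10 had a peak inside or within 100 kb, and 7 inside or within 10 kb. Over all protein-coding genes the shares were 21.8% and 7.55%. The 2 counts differ by Dlx5 (17.0 kb). Dlx1 was just inside the nearer limit, with peaks at 5.94 and 8.73 kb. A promoter window was overlapped by a peak for 2 of the 8 genes that had one listed, against 1.21% of 17274 genes. Since the genes were picked with these positions known, nothing is read from the comparison. Of the 11 peaks, 7 lay on chromosome 2, which carries Gad1, Gad2, Slc32a1, Dlx1 and Dlx2. With the nearest protein-coding gene as the criterion, 10 of the 11 peaks belonged to one of the 10 genes. Among genes of all types only 4 did, because 7 midpoints were inside or nearer to another gene, including Gad1os, Dlx1as and Dlx6os1.

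The rule used peak positions and not width, but the genes were chosen with earlier results of these data known, so the widths are description only. Width varied greatly among the peaks near these genes. The Gad1 peak ranked 43rd from the widest of the 3294, the Gad2 peak 129th and the Slc32a1 peak 160th, at the 98.7th, 96.1st and 95.1st percentiles. The Dlx6 peak was at the 91.3rd percentile and both peaks between Dlx1 and Dlx2 were at the 86.4th and 84.3rd. The peak near Sst was at the 0.486th percentile. Of the 7 peaks inside or within 10 kb, 6 were thus wider than the median peak (1341.5 bp), and their median was 2289 bp. The 4 peaks farther out were 618 to 1661 bp wide, with a median of 1002 bp, and 3 of them were below the median.

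Peaks over promoter windows were wider, with a median of 1589.5 bp for 186 peaks against 1327 bp for the other 3108. Any overlap with a window counted, and a wider peak overlaps one more readily. How much of the difference in width was built in this way was not tested. Among those 186 alone, the Gad1 and Gad2 peaks were at the 96.8th and 91.9th percentiles. Set against the same peaks, the Slc32a1 peak, which lay off the window, was at the 90.9th. Width in a peak list depends on the caller, its settings and how replicates were combined. The sources used here name SEACR 1.1 without its role or settings, and do not say how replicates were combined. Width was not taken as strength of binding.

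**Figure D3:**
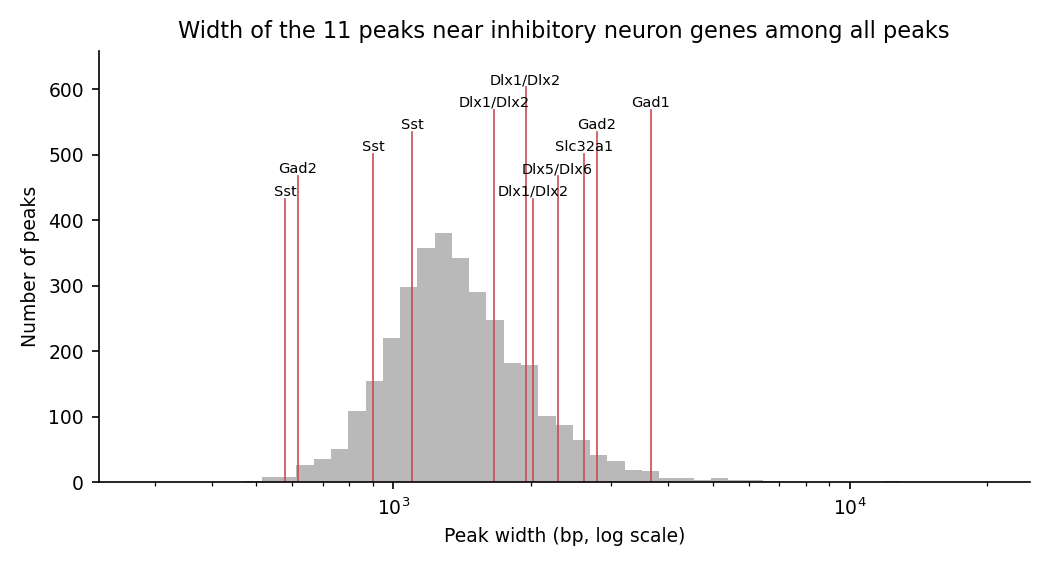
Histogram of the widths of all 3294 peaks (bp, log scale; number of peaks on the y axis), with a red line and the gene's name at each of the 11 peaks near the genes described. Gad1 (3665 bp), Gad2 (2786 bp) and Slc32a1 (2617 bp) lie in the right tail, and 1 peak each of Sst (580 bp) and Gad2 (618 bp) in the left tail.

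The Gad1 and Gad2 promoters were not at either extreme of base composition. G and C made up 60.0% of the Gad1 window and 61.3% of the Gad2 window, the 60.4th and 64.8th percentiles of all windows. The ratio of observed to expected CpG was 0.849 for Gad1 and 0.543 for Gad2, against a median of 0.828 in windows overlapped by a peak and 0.574 in all. The highest ratio among the 8 genes with a window, 0.898, belonged to Dlx2, whose window had no peak, and the lowest, 0.199, to a Pvalb start.

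Erbb4 encodes the neuregulin receptor through which excitatory input to interneurons is tuned, and at 1077 kb it was by far the longest of the 10 genes. No peak midpoint fell inside it or within 200 kb of it. The nearest, 333 kb away, was on the side of the listed start, and was farther than for 47.6% of protein-coding genes. A count of 0 allows up to 0.279 peaks per 100 kb (3 counts over the gene), which is above the 0.195 found over the 195 protein-coding genes between 0.5 and 2 times its length and the 0.167 over all protein-coding genes. At this number of peaks a lower density in Erbb4 was therefore not detectable. Of the 195 genes, 127 (65.1%) had a peak inside and 68 had none, so that Erbb4 was 1 of many long genes without one. The stretch of chromosome 1 between the peaks on either side of Erbb4 measured 3.07 Mb, longer than 95.9% of the 3254 gaps between neighbouring peaks on the autosomes (median 0.320 Mb). It was picked because it spans a gene of 1077 kb without a peak, so it had to be longer than that gene. Nothing is therefore read from its rank among all gaps. Map2, Unc80, Cps1 and Lancl1 were among the other genes that overlapped this stretch.

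Neuregulins, the ligands of ErbB receptors, include genes of the same length that did hold peaks. Nrg1 (1084 kb) had 2 peaks inside and Nrg3 (1108 kb) had 3. That was 0.184 and 0.271 peaks per 100 kb, beside 0.195 over the 195 genes of like length. The receptor genes Egfr, Erbb2 and Erbb3 had none within 100 kb. The ligand gene Hbegf, which encodes a heparin-binding growth factor, had its nearest at 44.4 kb. The ligand genes Nrg2, Nrg4, Btc and Ereg had none within 100 kb. Of the 10 genes in this list, which leaves out Erbb4, 3 (30%) had a peak within 100 kb and 2 (20%) within 10 kb. The shares of all protein-coding genes were 21.8% and 7.55%.

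**Figure D4:**
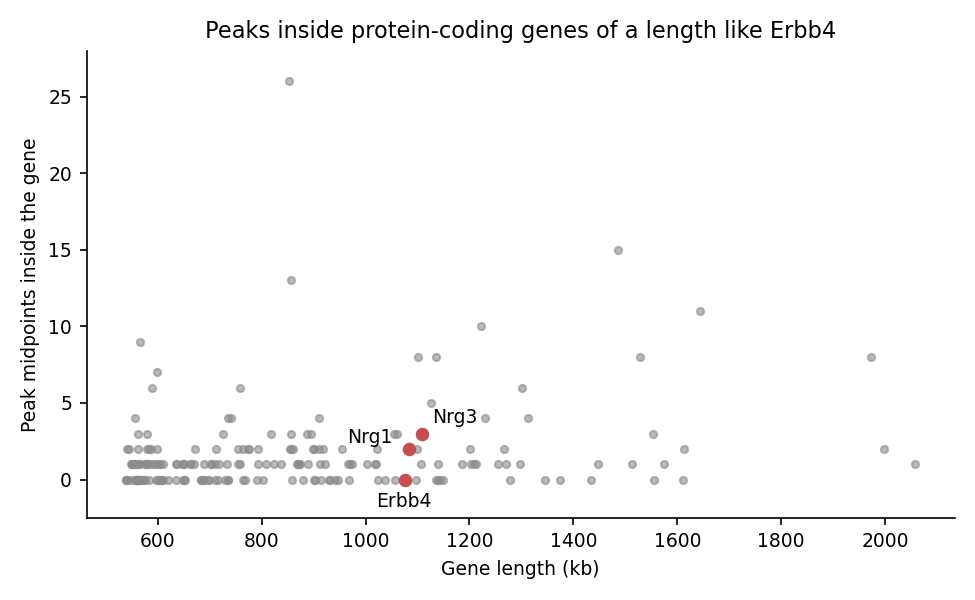
Number of peak midpoints inside each of the 195 protein-coding genes between 0.5 and 2 times the length of Erbb4 (y axis) against gene length in kb (x axis). Erbb4, Nrg1 and Nrg3 are marked in red at 0, 2 and 3 peaks, and 68 genes lie at 0.

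Other genes of the same pathways had peaks about as often as protein-coding genes at large. Over 5 related lists with 65 genes, 15 (23.1%) had a peak inside or within 100 kb and 6 (9.23%) inside or within 10 kb, beside 21.8% and 7.55% of all protein-coding genes. The median distance to the nearest peak was 317 kb over these 65 genes and 360 kb over all. For the 10 genes described it was 3.46 kb, but peak positions were used to choose them, so nothing is read from that difference.

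GABA uptake and breakdown had no gene with a peak within 10 kb and 3 of 9 (33.3%) within 100 kb, beside 7.55% and 21.8% of all protein-coding genes. The amino acid transporter gene Slc38a1 had its nearest peak at 90.4 kb, and Slc6a11, the GABA transporter GAT-3, at 98.4 kb. Abat, which encodes the transaminase that degrades GABA, was 317 kb from a peak. Of 22 other interneuron class markers, 4 (18.2%) had a peak within 100 kb. Crhbp, a corticotropin-releasing hormone binding protein made by some somatostatin cells, had it at 6.19 kb, and the others were Calb1 (32.9 kb), Cnr1 (43.0 kb) and Htr3a (95.5 kb). Vip and Npy, which encode interneuron peptides, had their nearest peaks at 258 and 185 kb. None of the 5 somatostatin receptor genes had a peak within 100 kb, and the nearest was at 189 kb for Sstr4.

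Among 19 other transcription factors of the ganglionic eminences and interneurons, 5 (26.3%) had a peak within 100 kb and 3 (15.8%) within 10 kb. All protein-coding genes gave 21.8% and 7.55%. Sp9, a zinc finger factor of the inhibitory lineage on chromosome 2, had a peak of 2613 bp 2.28 kb away. Lhx8, a LIM homeobox factor of the ventral forebrain, had a peak of 2437 bp across one end of the gene, with its midpoint just inside, that overlapped its promoter window. These were at the 95.1st and 93.3rd percentiles of width, in the range of the peaks at Slc32a1 and Dlx6. Nr2f2, an orphan nuclear receptor of caudally derived interneurons, held a peak of 1100 bp (25.3rd percentile). Lhx6 and Nkx2-1, which specify medially derived interneurons, had no peak nearer than 2321 and 711 kb. Dlx3 and Dlx4, the remaining Dlx genes of the list, were 301 and 321 kb from a peak.

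Genes of excitatory neurons, the cells that the tag mainly marks, gave 2 of 10 (20%) with a peak within 100 kb and 1 (10%) within 10 kb. The shares of all protein-coding genes were 21.8% and 7.55%. Neurod6, a transcription factor of pyramidal neurons, had a peak of 858 bp 5.34 kb away, and Slc17a7, the vesicular glutamate transporter VGLUT1, one of 1260 bp 14.1 kb away. Camk2a itself was 288 kb from its nearest peak. Over the 3 short glial lists, 4 of 15 genes (26.7%) had a peak within 100 kb and 2 (13.3%) within 10 kb, again near those shares. Within 100 kb the counts were 0 of 5 astrocyte, 2 of 5 oligodendrocyte and 2 of 5 microglia markers, too few genes to compare. Mbp, a myelin protein gene, held a peak of 1068 bp and Aif1, a microglial gene, had one of 1154 bp at 5.80 kb. The lists differ in gene length and local gene density, and no difference between them was tested.

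**Figure D5:**
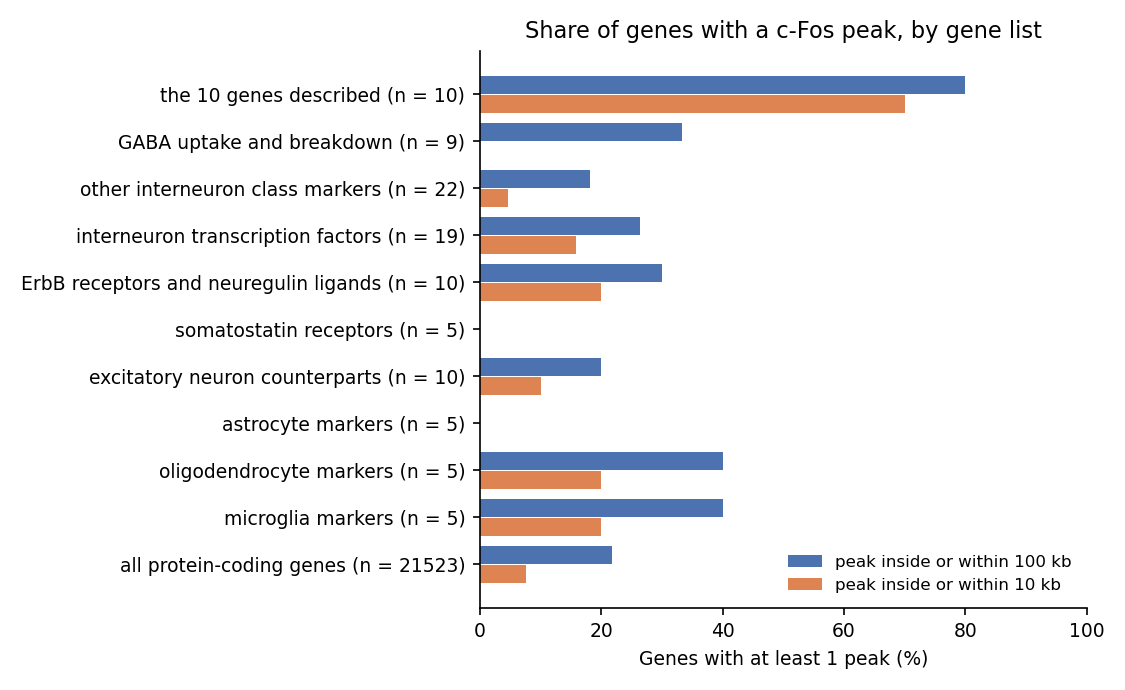
Percent of genes with at least 1 peak inside or within 100 kb (blue) and 10 kb (orange), for the 10 genes described, 9 other lists and all protein-coding genes, with the number of genes in each list. The 10 genes, whose choice used peak positions, reach 80% and 70%, and the other lists range from 0 to 40%.

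To place the Gad1 pattern, genes between 0.5 and 2 times its length with 1 peak inside or within 10 kb were ranked by how near their peak distance came to that of Gad1. Of 415 such genes the 5 closest were Tfg, Xpc, Zfp444, Mttp and Socs5, with distances of 526.5 to 648 bp against 590 bp. With 1 list and no values per sample, likeness rests on this distance alone.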

How the data were processed

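CUT&RUN for c-Fos or IgG was run on 12 samples, grouped by their titles. Trimmomatic 0.36, Bowtie2 2.2.9, bedtools 2.27.1 and SEACR 1.1 are named with mm10 and sacCer3, per the submitters' processing notes; no source used here gives their roles or settings, the peak threshold or how replicates were combined. The deposited file holds chromosome, start and end of 3295 peaks and no header, and was treated as the list of the kainic acid c-Fos group; other measurements were not used. Read depth is unknown.

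One peak on an unplaced sequence was left out, as were 108 protein-coding genes listed below position 3000000, whose coordinates appeared to belong to unplaced scaffolds. Positions are 1-based. Distances ran from peak midpoint to gene body, with limits of 100 and 10 kb. RefSeq promoter windows gave strand and starts. Exons and introns were not used. The 10 genes and the other lists (all 100 distinct genes matched) were chosen with earlier results of these data known. Genes named were the 10, list members with a peak within 10 kb or else the nearest, with others added for context after their values were seen; some are not reported here. No test was run, since positions chose the genes. Alternatives covered peak width, merging, distance and linking. Python 3.11.15, pandas 2.3.3 and numpy 2.4.6 were used, and distance code was tested on simulated data.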

Additional observations from a re-analysis of the deposited data

How the results depend on the processing

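No paired analysis was possible because positions were given for the group and not for single replicates, which also could not be omitted in turn. With only the peaks at least as wide as the median (1647), 7 peaks near the 10 genes remained instead of 11, and Sst had none; related genes with a peak fell from 15 to 9, by construction. That number was 26 with a limit of 200 kb and 9 when each peak counted for its nearest protein-coding gene only. Counting genes of all types, 4 of the 11 peaks had one of the 10 genes as nearest instead of 10. The median width percentile of the 11 peaks, 84.3, became 69.9 among peaks over promoter windows and 82.0 among peaks inside or within 10 kb of a coding gene, both chosen after seeing the data. Numbers of the 10 genes with a peak within 100 or 10 kb stayed within 1.5 times under each alternative. Neither wider nor merged peaks could add one inside Erbb4, so they say nothing about its count of 0. Of 124 values for single genes and lists, 24 moved by more than that.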
